A study of Mus musculus with 20 samples.

Results

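At day 6 of adipocyte differentiation, 3T3-L1 cells with a short hairpin RNA that targets Tcf7l2 were compared with cells given a scrambled one. The comparison covers the 15840 genes, of 33581 in the deposited table of that day, whose mean normalised count over its 4 libraries was at least 10. The other 17741 genes were below that minimum. The 3T3-L1 line is a mouse embryonic fibroblast line committed to the fat lineage, which accumulates lipid and takes on adipocyte gene expression after hormonal induction.

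Gene expression was measured by RNA-seq on days 0, 2, 4, 6 and 8. Each hairpin had 2 libraries on each day, so the 20 libraries form 10 groups. The knockdown group (shTcf7l2) and the control group (shScr) both carried a lentiviral SMARTvector, both were puromycin-selected mixed populations rather than clones, and both were differentiated without the routine addition of a thiazolidinedione, a Pparg agonist. The labels name a single knockdown vector for these libraries, so an effect of that hairpin or vector and an effect of lower Tcf7l2 cannot be told apart. Nor do they state whether libraries of 1 group were grown as separate cultures. The p-values therefore describe the spread of these samples alone, and that spread may be technical. As these were bulk samples, fewer cells of a type and less RNA per cell cannot be told apart for any gene.

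Levels are reads recovered from the deposited values, scaled to each library's total (RPM, for every 1000000 reads), and are always given in the order scrambled 1, scrambled 2, knockdown 1 and knockdown 2. RPM is not divided by gene length and serves here to compare libraries within a gene. The 4 libraries held 23253419, 27272521, 21295026 and 33795587 reads, and all 20 held 20153360 to 33973608. A difference is the knockdown mean less the scrambled mean of the deposited log2 values, which are variance-stabilised. It has a standard error (SE), and a gene was called when its limma adjusted p was under 0.05. Those log2 values compress changes of low genes. The scrambled libraries of day 6 differed from each other more than the knockdown libraries did, with an SD across genes of 0.490 against 0.233 on the log2 scale. The difference over all 15840 genes had a median of -0.0013.

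Tcf7l2 encodes a DNA-binding partner of beta-catenin and carries Wnt signals to target genes, together with its relatives Lef1, Tcf7 and Tcf7l1. Wnt signalling is known for holding preadipocytes in the undifferentiated state, and Tcf7l2 is a candidate gene for type 2 diabetes. Tcf7l2 stood at 49.7, 54.7, 15.5 and 18.1 RPM. Both knockdown libraries were below both scrambled libraries, at 32.2% of the scrambled mean. Its difference was -1.52 (SE 0.192, limma adjusted p = 0.00130), and the adjusted p was 0.0524 in a fit of the day 6 libraries alone. Lef1 was at 20.3, 25.1, 10.8 and 9.05 RPM and also fell, by 1.04 on the log2 scale (SE 0.244, limma adjusted p = 0.0338). The Lef1 call ended without scrambled library 2 and without either knockdown library. Tcf7l1 was at 206, 159.5, 144 and 160.2 RPM, with a difference of -0.29 that did not pass (limma adjusted p = 0.180). Tcf7 was below the minimum, with 1, 3, 2 and 5 reads.

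Of 26 genes listed as Wnt targets or feedback regulators, 13 reached the minimum. In the limma fit 0 of the 13 were called, and their median difference was 0.19. Over all genes 2.70% were called higher and 1.45% lower in that fit, so 0 calls do not set this list apart. With the replicate number as a block, 2 of the 13 were called higher, beside 9.46% of all genes. These were Wisp1 and Wisp2, with limma adjusted p of 0.0383 and 0.0465 in that fit. Axin2, a feedback gene widely used as a read-out of canonical Wnt signalling, had 0, 0, 2 and 9 reads and was below the minimum. Ccnd1, the cyclin D1 gene, was at 147, 56.4, 214 and 263 RPM with a difference of 1.31 (limma adjusted p = 0.147). Lgr4, an R-spondin receptor, was at 209, 143, 135 and 125 RPM with a difference of -0.44 (limma adjusted p = 0.177). The libraries of the groups did not overlap for either gene.

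Over all 15840 genes, 657 were called at day 6 (4.15%), of which 427 were higher (2.70%) and 230 lower (1.45%) in knockdown cells. Of the calls, 302 had a mean level above the median of 21.6 RPM (192 higher, 110 lower). With the replicate number as a block, 2919 genes were called (18.4%), with 1498 higher (9.46%) and 1421 lower (8.97%). Block counts of any gene list are to be read beside 9.46% and 8.97%, and main-fit counts beside 2.70% and 1.45%. On recovered reads with limma voom, 405 were called (2.56%). The 2 libraries of each group did not overlap for 8658 genes (54.7%), and this included all 657 called genes. The count of calls rested on single libraries: it was 90 without scrambled library 2 and 2291 without scrambled library 1. It was 93 and 143 when knockdown library 1 or 2 was left out. The day 6 libraries alone gave 52 calls, 48 of them higher.

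**Figure D1:**
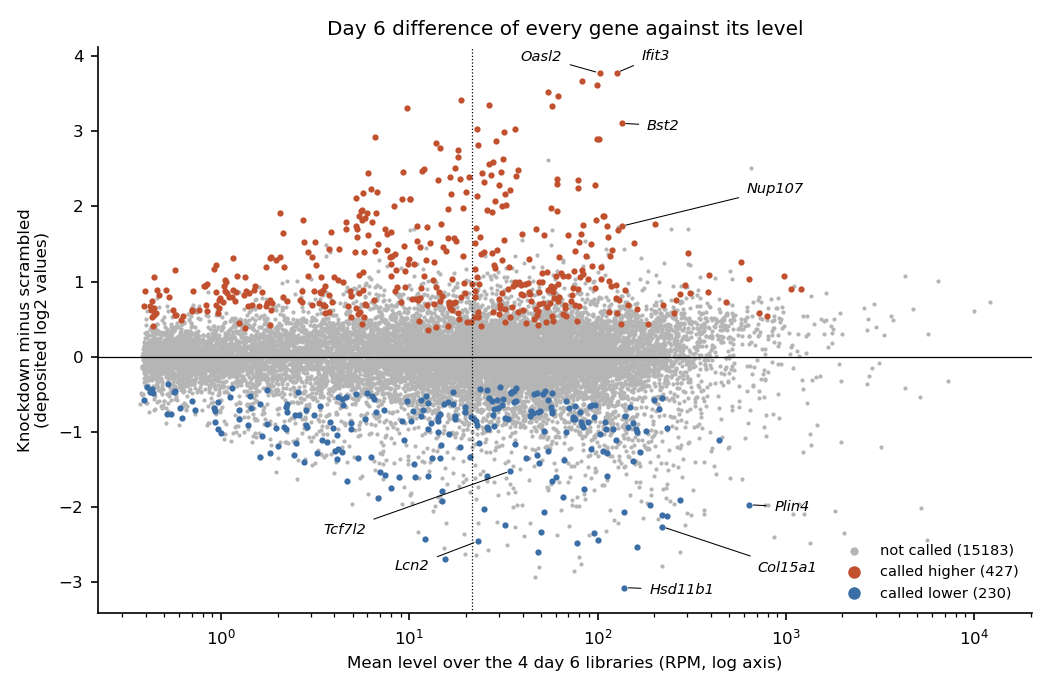
Each point is 1 of 15840 genes, placed by its mean level over the 4 day 6 libraries (RPM, log axis) and its knockdown minus scrambled difference (deposited log2 values), with called genes coloured and a dotted line at the median level of 21.6 RPM. The 427 increases reach 3.78 (Ifit3) and the 230 decreases -3.07 (Hsd11b1).

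Most of the largest increases were genes of the interferon response. Cells that sense foreign or misplaced nucleic acid secrete type I interferon, which acts through its receptor, the Jak kinases and a complex that holds Stat2 and Irf9. This complex binds the interferon-stimulated response element and switches on antiviral effectors. Interferon responses are known from inflamed fat tissue. Under a rule that took the 15 largest called increases with a level above the median, the genes named here are Ifit3, Oasl2, Ifit1, Ifi44, Mx1, Isg15, Bst2, Ddx60, Tgtp2, Tgtp1, Gvin1 and Gbp9. Reads of Ifit3, Tgtp1, Tgtp2 and Gvin1 may be shared with near-identical copies, so their levels are uncertain. The same holds for genes of the Gbp, Oas1, Mx and H2 families.

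Ifit3, whose product is part of a complex that binds foreign RNA, was at 25.8, 7.26, 253 and 219 RPM. Both knockdown libraries were far above both scrambled libraries, and scrambled library 1 was itself above scrambled library 2. The scrambled mean was 16.5 ± 13.1 RPM and the knockdown mean 236 ± 24.1 RPM (SD, n = 2), and the difference was 3.78 (SE 0.742, limma adjusted p = 0.0143). Ifit1, which binds RNA lacking cap methylation, was at 15.998, 5.06, 156 and 152 RPM and rose by 3.66 (limma adjusted p = 0.00972). Oasl2, of the oligoadenylate synthetase family, was at 12.6, 9.83, 214 and 175 RPM and rose by 3.77 (limma adjusted p = 0.00494). In Oasl2 the scrambled libraries were close to each other and both knockdown libraries stood more than 10 times above them.

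Isg15, a ubiquitin-like modifier, was at 10.9, 5.02, 129 and 83.1 RPM and rose by 3.34 (limma adjusted p = 0.00400). Bst2 (tetherin, which holds budding virus at the cell surface) was at 32.7, 18.6, 279.8 and 208 RPM and rose by 3.11 (limma adjusted p = 0.00218). Mx1, an antiviral dynamin-like GTPase, was at 3.78, 1.61, 52.2 and 48.4 RPM and rose by 3.35. Its groups were well apart in every library. Ifi44 was at 7.397, 4.91, 127 and 79.7 RPM and rose by 3.52, and the helicase gene Ddx60 was at 3.74, 2.13, 46.4 and 39.1 RPM and rose by 3.03. The immunity GTPase gene Gbp9 was at 6.32, 3.23, 65.6 and 40.5 RPM and rose by 2.87 (limma adjusted p = 0.00124). Limma adjusted p over the 15 genes of the rule ended at 0.0143. Without scrambled library 2 or without knockdown library 1, 2 of these 15 calls remained in each case, and without knockdown library 2, 6 remained.

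Of 43 interferon-induced effectors with a level above the minimum, 37 were called higher and 0 lower, beside 2.70% of all genes called higher. All 43 had a positive difference, with a median of 2.25 against -0.0013 for all genes. Of these, Oas1a had 7, 4, 386 and 691 reads, and Oas1g, named after its reads were seen, had 6, 2, 256 and 476. Both were called, but they reached the minimum only through the knockdown libraries, so their direction follows from that filter. The summed level of the list was 1290 and 862 RPM in the scrambled libraries and 4557 and 3854 RPM in the knockdown libraries. Oas2 (an RNA-activated synthetase that feeds the RNA-degrading enzyme RNase L) was at 1.08, 1.39, 37.9 and 35.03 RPM and rose by 3.42 (limma adjusted p = 0.00127). Gbp3 was at 11.0, 8.18, 75.9 and 53.2 RPM and rose by 2.40 (limma adjusted p = 0.00124). The call of Gbp3 held without any 1 library. Lgals3bp, a secreted glycoprotein gene, was at 167, 159, 488 and 397 RPM and rose by 1.38 (limma adjusted p = 0.00135). Rtp4 was at 5.81, 5.39, 48.9 and 46.3 RPM and rose by 2.57. The 6 members that missed the threshold, named after their values were seen, were Iigp1, Ifitm3, Ifitm1, Oas3, Gbp2 and Ifitm2, with limma adjusted p of 0.0584, 0.0601, 0.0688, 0.0688, 0.0776 and 0.464. With the replicate block 42 of the 43 were called higher. The count was 15 in the day 6 libraries alone, 9 without scrambled library 2, 9 without knockdown library 1 and 17 without knockdown library 2. In the authors' deposited table, 41 of the 43 were called higher.

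**Figure D2:**
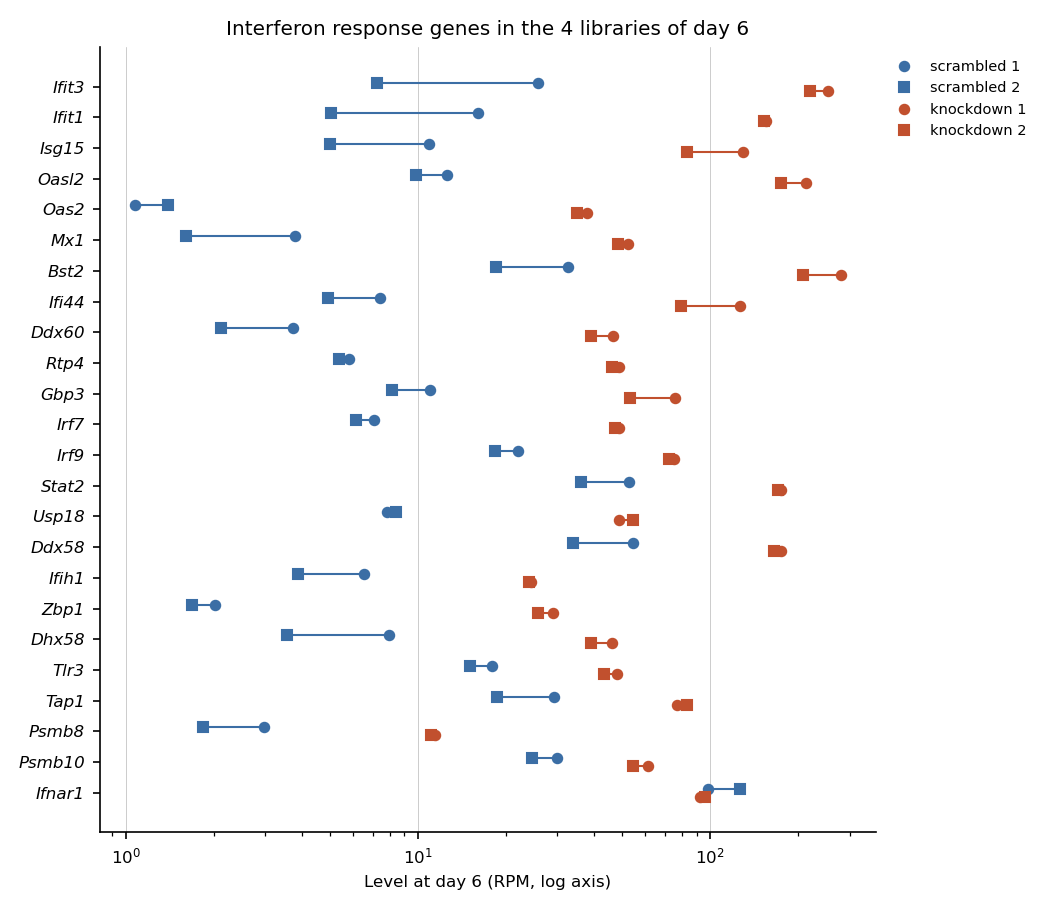
Levels of interferon response genes at day 6 in each library (RPM, log axis), with scrambled libraries in blue, knockdown libraries in orange, circles for library 1 and squares for library 2. Ifit3 lies at 253 and 219 RPM in the knockdown libraries against 25.8 and 7.26 in the scrambled ones, whereas the receptor gene Ifnar1 lies close together in all 4.

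The interferon genes themselves were not among the genes compared. Of 12 listed interferon genes 0 reached the minimum, and 10 had no read in any day 6 library. Ifnb1, the interferon beta gene, had 0 reads in each of the 4 libraries. A count of 0 allows up to 3 reads, which is 0.129, 0.110, 0.141 and 0.0888 RPM in these libraries, and covers counting error only. Ifng, named after its reads were seen, had 0, 0, 1 and 4 reads.

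Among 14 nucleic acid sensors and adaptors, 6 were called higher and 0 lower, with a median of 1.01. The replicate block gave 8 higher and 2 lower, beside 9.46% and 8.97% of all genes. Ddx58, which encodes the RNA sensor RIG-I, was at 54.7, 33.9, 175 and 166 RPM and rose by 1.87 (limma adjusted p = 0.00662). Ifih1, which encodes the RNA sensor MDA5, was at 6.54, 3.89, 24.5 and 23.9 RPM and rose by 1.77. Dhx58 (LGP2), a regulator of these sensors, was at 7.96, 3.56, 46.3 and 39.2 RPM and rose by 2.45. Zbp1, a sensor of Z-form nucleic acid, was at 2.02, 1.69, 29.1 and 25.7 RPM and rose by 2.77, and Tlr3, the endosomal receptor for double-stranded RNA, was at 17.9, 15.1, 47.9 and 43.4 RPM and rose by 1.29. In these genes both knockdown libraries were above both scrambled libraries. The sixth was Irf7, the transcription factor that amplifies interferon production, at 7.05, 6.12, 48.7 and 47.4 RPM with a rise of 2.41 (limma adjusted p = 0.00373). Of the 6, 1 call remained without scrambled library 2 (Irf7), 1 without knockdown library 1 (Irf7) and 3 without knockdown library 2. Named after their values were seen, Tmem173 (STING, the adaptor for cytosolic DNA) was at 14.4, 5.43, 29.6 and 26.3 RPM and Trim25 (a ubiquitin ligase that activates RIG-I) at 99.1, 112, 177 and 185 RPM, with limma adjusted p of 0.0752 and 0.0513, and 0.0329 and 0.0225 with the replicate block. The 2 called lower with the block, also named after their values were seen, were Mavs, the mitochondrial adaptor of the RNA sensors, and Irf3, a transcription factor that induces interferon. Mavs was at 74.8, 112, 52.8 and 56.6 RPM with a difference of -0.75 (limma adjusted p = 0.105, 0.0440 with the block). Irf3 was at 27.9, 30.3, 21.6 and 23.4 RPM with a difference of -0.37 (limma adjusted p = 0.161, 0.0246 with the block).

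Of 16 genes for interferon receptors, Jak-Stat factors and negative regulators, 4 were called higher and 0 lower, with a median of 0.17. The replicate block gave 5 higher and 1 lower, beside 9.46% and 8.97% of all genes. Stat2 was at 52.9, 36.2, 175 and 171 RPM and rose by 1.87 (limma adjusted p = 0.00862). Irf9, the DNA-binding part of the complex with Stat2, was at 21.9, 18.3, 75.2 and 72.2 RPM and rose by 1.70 (limma adjusted p = 0.00275). Irf1 was at 55.7, 46.6, 81.1 and 86.7 RPM and rose by 0.65 (limma adjusted p = 0.00244). Usp18, which removes Isg15 from proteins and dampens receptor signalling, was at 7.83, 8.40, 48.9 and 54.3 RPM and rose by 2.28 (limma adjusted p = 0.0421). That call ended on recovered reads (adjusted p = 0.0777) and without any 1 of the 4 libraries. The Stat2 call ended without scrambled library 2 and without either knockdown library, and those of Irf1 and Irf9 did not end without any 1 library. The receptor gene Ifnar1 was at 98.3, 127, 92.0 and 95.8 RPM, with both knockdown libraries below both scrambled ones and a difference of -0.28 (limma adjusted p = 0.253).

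Antigen presentation genes load peptides cut by the proteasome onto class I molecules. Of 16 in the list, 10 were called higher and 0 lower in the main fit, with a median of 0.86. The replicate block gave 11 higher and 0 lower, beside 9.46% and 8.97% of all genes. Psmb8, an immunoproteasome subunit, was at 2.97, 1.83, 11.4 and 11.1 RPM and rose by 1.496 (limma adjusted p = 8.04e-04). Psmb10, another such subunit, was at 29.9, 24.6, 61.4 and 54.4 RPM and rose by 0.98 (limma adjusted p = 0.00115). The peptide transporter genes Tap1 and Tap2 rose by 1.62 and 0.83, from 29.2, 18.6, 76.8 and 83.7 RPM and 32.2, 22.3, 52.8 and 50.0 RPM in the 4 libraries. Tapbp, which bridges transporter and class I molecule, was at 204, 183, 342 and 373 RPM and rose by 0.84. Cd74, the class II invariant chain gene, was at 1.98, 2.75, 17.8 and 9.26 RPM and rose by 1.66. Of these 10 calls, 3 remained without scrambled library 2, 4 without knockdown library 1, 3 without knockdown library 2 and 0 in the day 6 libraries alone. Over the 4 interferon response lists, 88 genes were members, 56 were called higher and 0 lower, and with the replicate block 65 were called higher and 3 lower (Mavs, Irf3 and the receptor gene Ifngr1, named after its values were seen). The 56 made up 13.1% of all genes called higher at day 6.

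The promoters of the increased genes were read for the core of the interferon-stimulated response element, GAAANNGAA on either strand, in RefSeq windows of 300 bases (250 before to 50 after the start, mouse build GRCm38.p6). The deposited table has no coordinates and was made on mm9, so these windows give sequence only. They were matched by gene symbol for 9345 of the 15840 genes. Of the 15 largest increases 9 had a window, and 8 of these held the core. Stretches of the windows with more than 1 match are shown for 6 genes called higher, because the matches lie close together there. Capitals mark the matches, and in Ifit1, Ifit3 and Gbp3 they read as the opposite strand of the core.
Ifit1 (chr19:34640740-34640853, plus strand): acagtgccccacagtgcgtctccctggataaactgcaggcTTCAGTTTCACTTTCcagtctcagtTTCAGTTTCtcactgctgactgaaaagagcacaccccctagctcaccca
Ifit3 (chr19:34583334-34583475, plus strand): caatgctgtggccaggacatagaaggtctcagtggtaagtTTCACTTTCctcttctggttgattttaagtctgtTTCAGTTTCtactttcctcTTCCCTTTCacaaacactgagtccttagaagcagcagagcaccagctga
Isg15 (chr4:156200836-156200936, minus strand): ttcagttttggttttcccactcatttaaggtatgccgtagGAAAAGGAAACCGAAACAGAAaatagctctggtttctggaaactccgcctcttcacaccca
Bst2 (chr8:71537548-71537642, minus strand): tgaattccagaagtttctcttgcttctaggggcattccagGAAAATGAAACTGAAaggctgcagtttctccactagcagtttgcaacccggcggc
Ddx60 (chr8:61927994-61928086, plus strand): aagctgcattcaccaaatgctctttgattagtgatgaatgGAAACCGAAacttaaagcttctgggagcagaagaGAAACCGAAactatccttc
Gbp3 (chr3:142559960-142560043, plus strand): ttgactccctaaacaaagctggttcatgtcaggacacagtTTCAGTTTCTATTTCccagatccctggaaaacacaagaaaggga

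In Ifit1, Isg15, Bst2 and Gbp3, neighbouring matches overlapped and ran together as a repeat. The first base of a match lay 109, 103 and 84 bases before the start of Ifit1 and 155, 121 and 102 bases before that of Ifit3. In Isg15 the distances were 78, 72 and 66 bases, in Bst2 130 and 124, in Ddx60 53 and 19, and in Gbp3 44 and 38. No window of Oasl2, Irf7 or Irf9 held these letters.

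Among genes with a window, the core was in 66 of 245 called higher (26.9%, exact 95% binomial interval 21.5 to 33.0%). It was in 11 of 166 genes called lower (6.63%, 3.35 to 11.6%), and in 814 of the 9345 of all genes compared (8.71%, 8.15 to 9.30%). A gene with several windows was counted once, if any of them held the core. Counted by window and not by gene, 8.56% of all 32851 windows in the RefSeq table held it. In the 34 interferon-induced effectors with a window the share was 67.6% (49.5 to 82.6%). Of the largest decreases 9 genes had a window, and 0 of these held it. The Tcf/Lef core CTTTGAT was in 11 of 245 genes called higher (4.49%), 2 of 166 called lower (1.20%) and 281 of 9345 in all (3.01%). The C/EBP palindrome TTGCGCAA was in 0, 1 and 32 genes of these sets. The first part of the PPAR direct repeat, AGGTCANAG, was in 2 (0.816%), 5 (3.01%) and 163 (1.74%). A match is a description of letters and not a site. In the 150 bases nearest the start alone, the share with the interferon core was 18.0% in genes called higher and 3.77% in all.

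Some genes outside the interferon lists were also called higher. Ly6a (Sca-1), a surface marker of mesenchymal progenitors, was at 15.01, 7.74, 57.7 and 50.4 RPM and rose by 2.02 (limma adjusted p = 0.00124). It was the only call among 23 preadipocyte markers and inhibitors of adipogenesis (4.35%, beside 2.70% of all genes called higher). The median of the list was 0.32. With the replicate block 3 were called higher and 1 lower, beside 9.46% and 8.97% of all genes. Pdgfra, a preadipocyte receptor gene, was at 1006, 467, 552 and 473 RPM, with a difference of -0.46 (limma adjusted p = 0.421). Only scrambled library 1 stood out for it, and the difference was 0.029 without that library.

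Of 19 contractile genes and targets of Srf, the serum response factor, 5 were called higher and 0 lower, and all 19 had a positive difference, with a median of 0.77. Tpm4, a tropomyosin gene, was at 265, 176, 415 and 388 RPM and rose by 0.84 (limma adjusted p = 0.00887). Tpm1 and Tpm2 rose by 1.09 and 0.86, from 349, 159, 581 and 466 RPM and 38.6, 21.5, 62.2 and 50.7 RPM in the 4 libraries. Ctgf and Ankrd1, targets of mechanical signalling, rose by 0.61 and 0.82 at levels of 0.215, 0.293, 0.892 and 1.39 RPM and 0.602, 0.367, 1.93 and 2.43 RPM. Ctgf was below the minimum in both scrambled libraries and reached it only through the knockdown libraries, so its direction follows from that filter. With the replicate block 14 of the 19 were called higher. The Tpm1 call ended with no filter (limma adjusted p = 0.0543), with a filter at 50 (0.0511) and after quantile normalization (0.0782). Ctgf and Ankrd1 did not reach the filter at 50. The calls of Tpm1, Tpm2 and Ctgf ended on recovered reads, where 2 of the 5 remained, and 0 of the 5 remained without scrambled library 2 or without knockdown library 2. Scrambled library 2 was above scrambled library 1 for 1 of the 19 genes, and the part of that gap between control libraries in the count was not tested.

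Of 27 collagen and basement membrane genes 1 was called higher and 1 lower, shares near the 2.70% and 1.45% over all genes, with a median of -0.09. The replicate block gave 5 higher and 3 lower. Col8a1 was at 4.04, 2.02, 10.2 and 14.4 RPM and rose by 1.42 (limma adjusted p = 0.0215). Col15a1, a basement membrane collagen gene, was at 229, 507, 57.7 and 86.6 RPM and fell, with a difference of -2.26 (limma adjusted p = 0.0338). Fn1 (fibronectin) was at 3245, 2228, 6800.0 and 4949.9 RPM with a difference of 1.07 (limma adjusted p = 0.169, 0.0152 with the replicate block).

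Nup107, a nuclear pore gene, was at 68.4, 51.0, 206 and 213 RPM and rose by 1.74 (limma adjusted p = 2.82e-04). Yeats4, a chromatin reader gene that lies 8 places before Nup107 on chromosome 10 in the RefSeq order, was at 44.9, 49.2, 124 and 129 RPM and rose by 1.33 (limma adjusted p = 6.40e-04). Both genes kept knockdown levels close together and clear of the scrambled libraries, and both calls remained without any 1 of the day 6 libraries. In the day 6 libraries alone their adjusted p was 0.0510 and 0.0615. Rap1b, a small GTPase gene next after Nup107, was at 209, 191, 323 and 294 RPM and rose by 0.58 (limma adjusted p = 0.0217). Of 12 listed genes around Mdm2 on this chromosome, Mdm2 included, 3 were called higher and 0 lower, with a median of 0.53. With the replicate block 7 were called higher. Over all genes 2.70% were called higher in the main fit and 9.46% with the block. Mdm2, the p53 regulator gene, was at 3095, 2889, 2851 and 2699 RPM with a difference of -0.15 (limma adjusted p = 0.634). Its difference was 0.033 after quantile normalization. Mdm2 and Slc35e3 were named after their values were seen. Slc35e3, between Mdm2 and Nup107, was at 1639, 1620.1, 1401 and 1390.2 RPM with a difference of -0.26 (limma adjusted p = 0.292).

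The largest decrease was in Hsd11b1, the enzyme that regenerates active glucocorticoid inside fat cells. It was at 206, 292, 21.2 and 35.1 RPM, with both knockdown libraries well below both scrambled libraries. The scrambled mean was 249 ± 60.6 RPM and the knockdown mean 28.1 ± 9.79 RPM (SD, n = 2), a difference of -3.07 (SE 0.639, limma adjusted p = 0.0190). Under the rule for the 15 largest called decreases, the named genes were Hsd11b1, Siglec1, Slc1a3, Ces1f, Lcn2, Parm1, Pdzd2, Col15a1, Abcd2, Hipk2, Sort1, Spry4, Ldhb and Abhd15, and the rest was a predicted gene. For 13 of these 15 the call ended without scrambled library 2, for 13 without knockdown library 1, and for 11 without knockdown library 2. The calls of Hipk2 and Lcn2 remained without any 1 of the 4 libraries.

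Siglec1, a sialic acid receptor known from macrophages, was at 52.9, 117, 7.94 and 14.9 RPM, with a difference of -2.60 (limma adjusted p = 0.0315, 0.0553 on recovered reads). Slc1a3, a glutamate transporter gene, was at 217, 340.2, 51.0 and 41.0 RPM with a difference of -2.53, and Ces1f, a carboxylesterase gene, was at 106, 161, 21.1 and 22.2 RPM with a difference of -2.49. Scrambled library 2 was the highest library for each of these. Lcn2, which encodes lipocalin 2, an iron-carrier binding protein and adipokine, was at 34.0, 47.3, 3.38 and 7.90 RPM and fell, with a difference of -2.46 (limma adjusted p = 0.00137). Hipk2, a nuclear kinase gene, was at 388, 369.7, 98.4 and 76.6 RPM with a difference of -2.13 (limma adjusted p = 0.00296). Its scrambled libraries were close to each other, unlike those of most decreases.

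Several other large decreases encode proteins of fat cell metabolism. Abcd2, a peroxisomal transporter of very long fatty acids, was at 41.0, 69.1, 7.98 and 10.9 RPM and fell, with a difference of -2.24 (limma adjusted p = 0.0163). Sort1 (sortilin, a part of the vesicles that carry the insulin-responsive glucose transporter) was at 264, 451, 65.7 and 98.2 RPM with a difference of -2.10. Abhd15, which takes part in insulin control of lipolysis, was at 29.5, 53.4, 6.15 and 10.1 RPM with a difference of -2.03 (limma adjusted p = 0.0468, 0.0735 on recovered reads). The lactate dehydrogenase gene Ldhb was at 168, 281, 41.8 and 62.3 RPM with a difference of -2.07. Spry4, an inhibitor of receptor tyrosine kinase signalling, was at 77.5, 93.6, 15.4 and 22.4 RPM with a difference of -2.07. Parm1 was at 124, 198, 25.1 and 34.0 RPM and Pdzd2 at 80.5, 88.9, 13.3 and 16.6 RPM, with differences of -2.35 and -2.34.

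**Figure D3:**
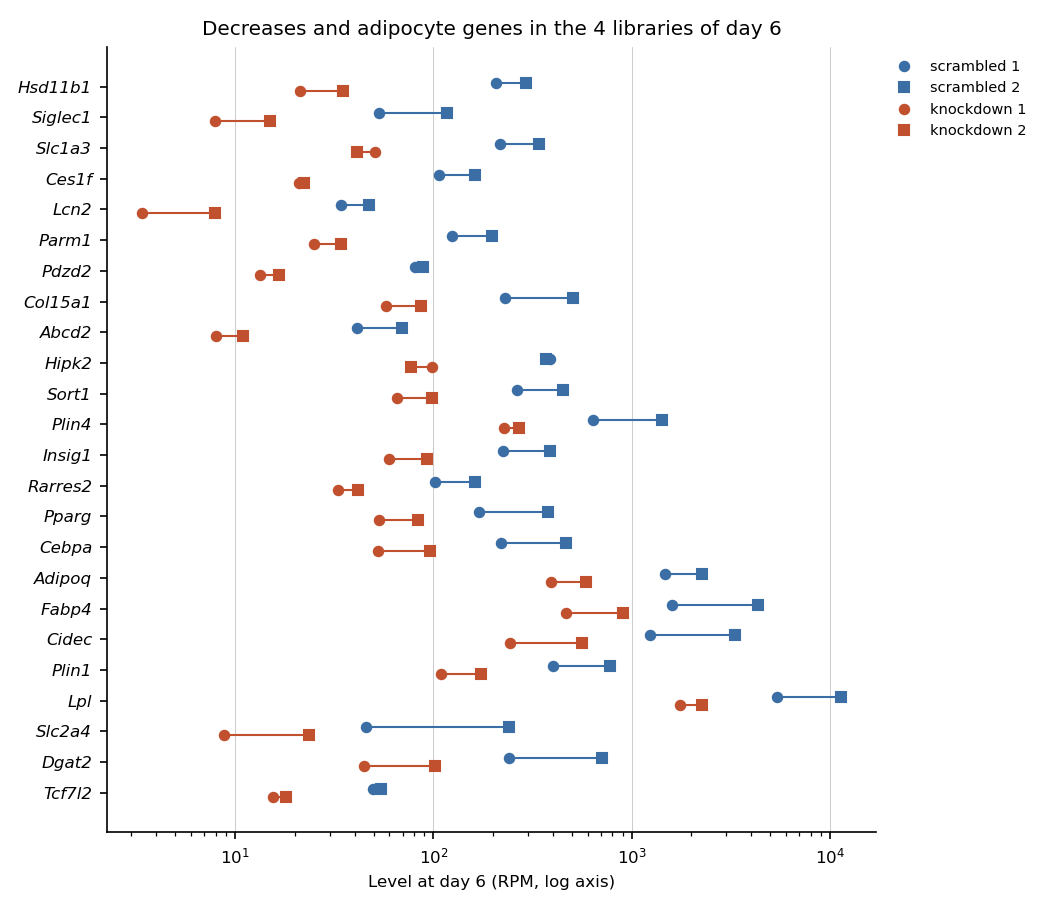
Levels of decreased and adipocyte genes at day 6 in each library (RPM, log axis), with scrambled libraries in blue, knockdown libraries in orange, circles for library 1 and squares for library 2. Hsd11b1 lies at 21.2 and 35.1 RPM in the knockdown libraries against 206 and 292 in the scrambled ones, and for most adipocyte genes scrambled library 2 is well above scrambled library 1.

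Adipocyte differentiation runs through Cebpb and Cebpd to Pparg and Cebpa, which hold each other on and activate the genes of lipid storage. Of 21 adipogenic transcription factors 0 were called in the main fit, where 2.70% of all genes were called higher and 1.45% lower. The median of the 21 was -0.64. With the replicate block, 11 were called lower and 1 higher, beside 8.97% and 9.46% of all genes. Pparg was at 169, 377, 52.9 and 83.9 RPM. Both knockdown libraries were below both scrambled ones, and scrambled library 2 was the highest of the 4. The knockdown mean was 25.1% of the scrambled mean. Its difference of -1.91 had a limma adjusted p of 0.0812, and of 0.0184 with the replicate block. Cebpa was at 219, 468, 52.3 and 96.0 RPM with a difference of -2.17 (limma adjusted p = 0.102, 0.00871 with the block). Nr1h3, which encodes the oxysterol receptor LXR alpha, was at 56.9, 115, 17.8 and 28.8 RPM with a difference of -1.75 (limma adjusted p = 0.0887, 0.0160 with the block). The early factor Cebpb was at 39.7, 129.9, 37.1 and 98.0 RPM, where the libraries numbered 2 were the higher in both groups, and its difference was -0.28 (limma adjusted p = 0.868). Cebpd was at 19.1, 13.7, 25.5 and 29.8 RPM with a difference of 0.64 (limma adjusted p = 0.0730, 0.0354 with the block).

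Of 28 mature adipocyte markers, 1 was called lower and 0 higher in the main fit, beside 1.45% of all genes called lower. With the replicate block, 21 of the 28 were called lower and 0 higher, beside 8.97% and 9.46% of all genes. The median of the list was -1.99, and 27 of 28 had a negative difference. The summed level of the list was 21672 and 59423 RPM in the scrambled libraries and 6384 and 11669 RPM in the knockdown libraries. The called gene was Plin4, a lipid droplet coat protein, at 636, 1427, 228 and 269 RPM with a difference of -1.97 (limma adjusted p = 0.0388). Adipoq, which encodes the hormone adiponectin, was at 1481, 2255, 391 and 589 RPM with a difference of -1.96 (limma adjusted p = 0.0944, 0.0118 with the block). Fabp4, the fatty acid carrier of fat cells, was at 1605, 4352, 469 and 908 RPM with a difference of -2.05 (limma adjusted p = 0.165, 0.0181 with the block). Lpl, the lipoprotein lipase gene, was at 5387, 11375, 1754 and 2269 RPM with a difference of -2.01 (limma adjusted p = 0.0640, 0.0177 with the block). Slc2a4, the insulin-responsive glucose transporter gene, was at 45.6, 240.4, 8.73 and 23.6 RPM with a difference of -2.67 (limma adjusted p = 0.156, 0.0262 with the block). For each of these genes the lowest scrambled library was above the highest knockdown library.

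The scrambled libraries were unequal for this list. Scrambled library 2 was above library 1 for 27 of the 28 markers, and its summed level was 2.74 times as high. The count called lower was 8 without scrambled library 1, 0 without scrambled library 2, 0 when either knockdown library was left out, 0 in the day 6 libraries alone and 11 without the libraries of day 8. In the authors' deposited table, 21 of the 28 were called lower and 0 higher. The part of the unequal scrambled libraries in these counts was not tested.

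Lipid droplet and lipolysis genes had a median of -1.71, with 1 of 18 called lower in the main fit (Plin4) and 11 with the replicate block. Pnpla2, which encodes the triglyceride lipase ATGL, was at 750.4, 1806, 211 and 432 RPM with a difference of -1.98 (limma adjusted p = 0.102, 0.00311 with the block). Cidec, which enlarges lipid droplets, was at 1240.0, 3330.5, 245 and 560.5 RPM with a difference of -2.49 (limma adjusted p = 0.185, 0.0288 with the block). Plin1, the main coat protein of fat cell droplets, was at 403, 779, 109.5 and 174 RPM with a difference of -2.04 (limma adjusted p = 0.122, 0.0150 with the block). Scrambled library 2 was the highest library in all 3 genes.

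Fatty acid and triglyceride synthesis genes had a median of -0.72, with 0 of 24 called lower and 1 called higher (4.17%) in the main fit. Over all genes these shares were 1.45% and 2.70%. With the block 8 were lower and 1 higher, beside 8.97% and 9.46% of all genes. The increase was Elovl6, a fatty acid elongase gene, at 13.2, 12.5, 21.9 and 31.0 RPM with a difference of 0.85 (limma adjusted p = 0.0483, 0.0665 on recovered reads). That call also ended with no filter (0.0550), with a filter at 50 (0.0505) and without any 1 of the 4 libraries. Dgat2, which makes the last bond of triglyceride, was at 241, 708, 44.8 and 102 RPM with a difference of -2.60 (limma adjusted p = 0.144, 0.0225 with the block). Among 24 genes of cholesterol synthesis and uptake, 1 was called lower (4.17%, beside 1.45% of all genes) and the median was -0.75. This was Insig1, a sterol sensor that holds back sterol-driven transcription, at 224, 386, 60.01 and 93.0 RPM with a difference of -1.97 (limma adjusted p = 0.0333). Cyp51, a synthesis enzyme gene, was at 116, 169, 53.6 and 70.1 RPM with a difference of -1.19 (limma adjusted p = 0.0809, 0.00502 with the block). With the block 11 of the 24 were called lower, beside 8.97% of all genes.

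Mitochondrial genes mostly had negative differences without passing the test in the main fit. The median was -1.15 over 19 fatty acid oxidation genes, -1.04 over 27 genes of the TCA cycle and pyruvate entry and -0.95 over 21 respiratory chain genes. In these lists 0 genes were called in the main fit, and 14, 20 and 14 were called lower with the replicate block. Over all genes the shares called lower were 1.45% in the main fit and 8.97% with the block. Pcx, pyruvate carboxylase, which feeds carbon into the cycle for lipid synthesis, was at 1172, 2386, 308 and 524 RPM with a difference of -2.09 (limma adjusted p = 0.0601, 0.00425 with the block). Acads, the short-chain acyl-CoA dehydrogenase gene, was at 143, 268, 61.8 and 81.3 RPM with a difference of -1.47 (limma adjusted p = 0.0747, 0.0164 with the block). The electron carrier gene Cycs was at 225, 501, 86.6 and 126 RPM with a difference of -1.69 (limma adjusted p = 0.110, 0.0252 with the block).

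Branched-chain amino acid breakdown, which supplies carbon for lipid in fat cells, had a median of -1.05 over 22 genes. In the main fit 1 was called higher and 1 lower (4.55% each, beside 2.70% and 1.45% of all genes). With the block 1 was higher and 16 lower, beside 9.46% and 8.97% of all genes. Bcat1, the cytosolic aminotransferase gene, was at 11.7, 12.3, 35.6 and 36.9 RPM and rose by 1.37 (limma adjusted p = 0.0280). Acadsb, an acyl-CoA dehydrogenase gene of the pathway, was at 159, 224, 99.1 and 100.2 RPM and fell, with a difference of -0.94 (limma adjusted p = 0.0420). Over the 9 lists of fat cell and mitochondrial genes from the transcription factors to this one, 178 of 189 genes had a negative difference. Of these 189 genes, 3 were called lower and 2 higher in the main fit, and 115 lower and 3 higher with the replicate block. The shares over all genes were 1.45% and 2.70% in the main fit, and 8.97% and 9.46% with the block.

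**Figure D4:**
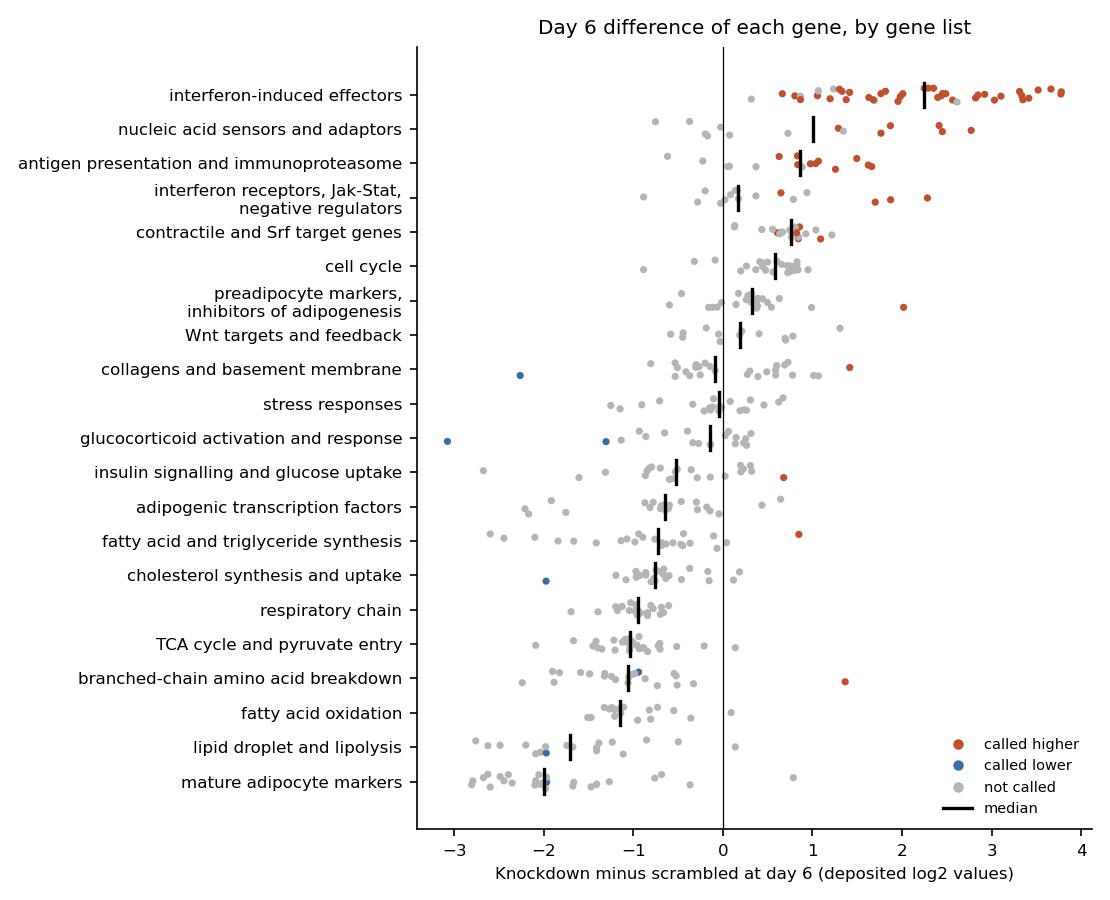
Knockdown minus scrambled difference at day 6 (deposited log2 values) of each member of 21 gene lists, 1 point per gene, with called genes coloured and a bar at the list's median. The interferon-induced effectors centre on 2.25 with 37 of 43 called higher, and the mature adipocyte markers on -1.99 with 1 of 28 called lower.

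Genes of insulin action and glucocorticoid response had few calls in the main fit. Of 22 insulin signalling and glucose uptake genes, 1 was called higher (4.55%) and 0 lower, with a median of -0.52. Over all genes 2.70% were called higher and 1.45% lower, so few calls do not set this list apart. With the block 7 were lower and 1 higher, beside 8.97% and 9.46% of all genes. Hk1, a hexokinase gene, was at 66.7, 52.7, 99.4 and 99.5 RPM and rose by 0.68 (limma adjusted p = 0.0172). Irs1, an insulin receptor substrate gene, was at 189, 173, 105 and 99.8 RPM with a difference of -0.85 (limma adjusted p = 0.0960, 0.0185 with the block). Of 19 glucocorticoid genes, 2 were called lower (10.5%, beside 1.45% of all genes), Hsd11b1 and Fam107a, with a list median of -0.14. With the block 7 were lower and 0 higher. Among these, Zbtb16, a glucocorticoid-induced transcription factor gene, was at 28.7, 42.1, 15.9 and 18.97 RPM with a difference of -0.93 (limma adjusted p = 0.0700, 0.0119 with the block). Fam107a, a glucocorticoid-induced gene, was at 3.57, 4.95, 0.470 and 0.799 RPM with a difference of -1.30 (limma adjusted p = 0.0119). The receptor gene Nr3c1 was at 203, 173, 174 and 175 RPM with a difference of -0.14 (limma adjusted p = 0.495).

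Of 20 adipokine and complement genes, 2 were called lower, Lcn2 and Rarres2, and 1 higher, with a median of -0.93. These shares were 10% and 5%, beside 1.45% and 2.70% of all genes. With the block 7 were lower and 1 higher, beside 8.97% and 9.46% of all genes. Rarres2, which encodes the chemoattractant chemerin, was at 102, 162, 33.1 and 41.6 RPM and fell, with a difference of -1.76 (limma adjusted p = 0.0366). C3, the central complement component, was at 3653, 5215, 2145 and 1758 RPM with a difference of -1.21 (limma adjusted p = 0.0718). Hp, the haptoglobin gene, was at 44.9, 229.8, 9.53 and 15.2 RPM, with scrambled library 2 far above the rest and a difference of -2.85 (limma adjusted p = 0.105, 0.0361 with the block).

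Stress and cell cycle lists held no calls in the main fit. Over all genes 2.70% were called higher and 1.45% lower there, so an absence of calls does not set these lists apart. The cell cycle list had a median of 0.58 over 24 genes. With the block 3 were called higher and 1 lower, beside 9.46% and 8.97% of all genes. Ccnb2, a mitotic cyclin gene, was at 6.28, 4.33, 10.0 and 13.5 RPM with a difference of 0.84 (limma adjusted p = 0.158, 0.0230 with the block). The stress list had a median of -0.04 over 21 genes. With the block 2 were called lower, a share near the 8.97% over all genes. Hspa5, the endoplasmic reticulum chaperone BiP, was at 944, 3029, 928 and 928 RPM. Scrambled library 2 stood apart and the other 3 libraries were nearly equal, and the limma adjusted p was 0.223.

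Markers of other cell types were few at day 6. The 8 adipocyte markers had a median of -2.05, with 0 called in the main fit and 8 called lower with the block. The 10 fibroblast and preadipocyte markers had a median of 0.65, with 0 called in the main fit and 4 higher and 1 lower with the block. Their summed level was 37027, 20543, 45198 and 49055 RPM, so scrambled library 2 was the lowest there and the highest in the adipocyte list. Of 16 macrophage markers 7 reached the minimum and 1, Siglec1, was called, with a summed level of 84.5, 138, 46.3 and 51.4 RPM over the list. Siglec1 made up most of that sum in both scrambled libraries. The 7 markers had a median difference of 0.14, with 5 positive and 2 negative. The part of other cell types in the Siglec1 decrease was not tested. The leukocyte gene Ptprc had 3, 0, 0 and 0 reads, and Csf1r, a macrophage growth factor receptor gene, was at 1.16, 0.733, 1.13 and 1.33 RPM with a difference of 0.14 (limma adjusted p = 0.589). Of 8 endothelial, 8 muscle, 8 bone and cartilage and 6 epithelial markers found in the table, 2, 3, 3 and 0 reached the minimum and 0 were called in the main fit. Ucp1, the marker of thermogenic fat, had 0 reads in each library.

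The same genes were followed at the neighbouring days. Of the 15840 genes, 258 were called at day 4 (1.63%) and 900 at day 8 (5.68%) in the same fit. Of the day 6 calls 235 were also called at day 4, all in the same direction, which is 35.8% of the day 6 calls and 91.1% of the day 4 calls. With day 8, 475 were shared, all in the same direction, which is 72.3% of the day 6 calls and 52.8% of the day 8 calls. All these tests share 1 estimate of each gene's spread. For the change of the effect itself, from day 4 to day 6 or from day 6 to day 8, limma called 0 genes (0%) in either interval. At an unadjusted p under 0.05 the counts were 211 and 133 genes, and limma voom on recovered reads called 0 in both. With the replicate block 0 genes were called for the first interval and 1, Lcn2, for the second, and with the block on recovered reads 0 were called for either. Without scrambled library 1 of day 8, 2 genes were called for the second interval, St3gal6 and Inhbb, both named after their values were seen.

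Ifit3 was at 2.75, 1.45, 89.5 and 176 RPM at day 4 and 44.0, 9.03, 149 and 337 RPM at day 8, with differences of 4.68 and 3.27, so the knockdown libraries were above the scrambled ones on either side of day 6. The day 6 minus day 4 change of its effect was -0.91 (SE 1.05, limma adjusted p = 1.000). Hsd11b1 was at 40.2, 153, 14.1 and 23.2 RPM at day 4 and 113, 403, 16.1 and 21.98 RPM at day 8, with differences of -1.94 and -3.40. At day 0 its 4 levels were 4.32, 2.43, 1.63 and 0.822 RPM, and at day 2 they were 14.4, 28.3, 11.2 and 27.8 RPM, where the groups overlapped. Lcn2 was at 106, 155, 165 and 214 RPM at day 2, 43.3, 72.5, 11.6 and 16.02 at day 4 and 4.07, 3.33, 3.07 and 3.80 at day 8. Its difference was -1.80 at day 4 (limma adjusted p = 0.00788) and -0.10 at day 8 (limma adjusted p = 0.874), and the change from day 6 to day 8 was 2.35 (SE 0.447, limma adjusted p = 1.00, 0.0292 with the replicate block). Pparg was at 126, 331, 75.5 and 95.3 RPM at day 4 and 112, 397, 43.6 and 59.2 RPM at day 8, with differences of -1.24 and -2.05.

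**Figure D5:**
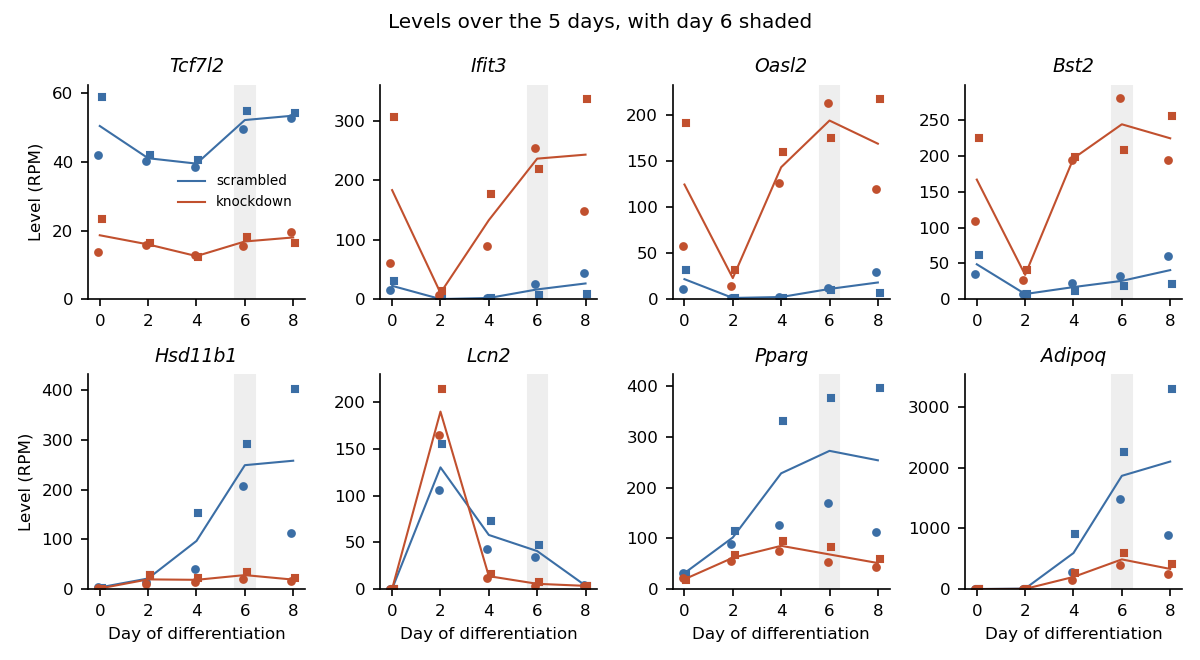
Levels (RPM) of 8 genes over the 5 days in scrambled (blue) and knockdown (orange) cells, with circles for library 1, squares for library 2, lines through the mean of the 2 libraries and day 6 shaded. Tcf7l2 is lower in both knockdown libraries on every day, and the scrambled libraries of Hsd11b1, Pparg and Adipoq spread apart from day 4 onwards.

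Outside the largest increases and decreases, the calls of Lef1, Col8a1, Hk1, Bcat1, Rap1b, Fam107a, Acadsb, Insig1, Plin4 and Rarres2 all ended without scrambled library 2 and without either knockdown library.

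The authors' deposited table of day 6 called 999 genes at an adjusted p under 0.05 among 16210 with such a value, 405 of them higher and 594 lower. Of the 657 genes called by limma, 439 (66.8%) were also called in the authors' deposited table. That table called 21 mature adipocyte markers, 14 lipid droplet genes and 8 TCA cycle genes lower, where the limma fit over all 20 libraries called 1, 1 and 0.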

How the data were processed

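The submitters' processing notes name TopHat2 2.0.13, Bowtie2 2.2.3.0, SAMtools, DESeq2 1.10.1 and the mouse build mm9, and the read counter is not given in the sources used here. Per the file headers, the authors deposited 1 table per day with variance-stabilised log2 values of each library, a mean normalised signal, log2 fold changes, a test score and p-values. Inverting the log2 transformation gave reads that were whole, within 0.02, for all values under 100 reads that were checked. RPM used these reads, and 1 RPM is 1 read in 1000000.

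limma 3.58.1 (R 4.3.3, empirical Bayes with trend and robust estimation) was fitted to the deposited log2 values of all 20 libraries with 10 group means and 16497 genes. P-values were adjusted by Benjamini-Hochberg over those genes. Libraries with the same number deviated together, with correlations across genes of 0.78, 0.70, 0.55, 0.54 and 0.47 on days 0, 2, 4, 6 and 8, so the replicate number paired the samples as read from the data. A fit with it as a block is given for many of the lists and genes where it changes a call. The model was tested on simulated data, where most wrong calls were genes below the median level, so the adjusted p of low genes may be too small.

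Named genes were the 15 largest called changes per direction above the median level and without overlap of the groups, up to 6 genes per list with the smallest p, and a set of reference genes, of which some results are not reported here. The members and lists were chosen with earlier results of these data known. Alternatives were other filters, scalings, fits on recovered reads, fewer days and leaving out each library.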

Additional observations from a re-analysis of the deposited data

Results flagged for a closer look

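For 3 of the named genes, the deposited log2 values of the groups did not overlap at day 6. At a neighbouring day they did not overlap in the opposite direction. At day 6 the groups did not overlap for 54.7% of all 15840 genes. No share with opposite directions over all genes is given here, so 3 genes cannot be read as many or few. The DNA replication gene Mcm2 had a difference of 0.56 at day 6 and -0.21 at day 4, and the change between these days had a limma adjusted p of 1.000. The interferon receptor gene Ifnar1 had a difference of -0.28 at day 6 and 0.0307 at day 4, with a limma adjusted p of 1.000 for the change. The chaperone gene Hsp90b1 had a difference of -0.71 at day 6 and 0.32 at day 8, with a limma adjusted p of 1.00 for the change. At day 6 scrambled library 2 was the highest of the 4 libraries for Hsp90b1 and Ifnar1 and the lowest for Mcm2.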

How the results depend on the processing

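The 657 calls became 2919 with the replicate block, 3106 with the block on recovered reads (an alternative chosen after seeing the data), 405 on recovered reads, 1442 without the day 8 libraries and 52 in the day 6 libraries alone, and ranged from 90 to 2291 when 1 library was left out. In the same order the calls of higher genes were 1498, 1365, 290, 715 and 48 (range 76 to 1067), and those of lower genes 1421, 1741, 115, 727 and 4 (range 12 to 1224). Calls of the change from day 6 to day 8 were 1 with the block and 0 to 2 when 1 library was left out. The 37 effectors called higher were 15 in the day 6 libraries alone and 9 to 39 when 1 library was left out. The 1 mature adipocyte marker called lower was 21 with the block, 23 with the block on recovered reads, 11 without the day 8 libraries, 0 in the day 6 libraries alone and 0 to 8 when 1 library was left out. No filter, a filter at 50, quantile normalization, median centring and a fit with no trend or robust estimation gave 566, 546, 726, 657 and 680 calls, and requiring a 1.5-fold change in addition gave 570.

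In the 150 bases nearest the start, the interferon core was in 18.0% of genes called higher and 3.77% of all, the Tcf/Lef core in 2.04%, 0% and 1.26% of genes called higher, lower and all, the C/EBP palindrome in 0.171% of all, and the PPAR repeat in 0% of genes called higher and 0.749% of all. Leaving out 1 library, the differences ranged from -1.16 to 0.595 for Cebpb, -1.99 to 0.28 for Cox8b, -0.22 to 0.52 for Sox9 and -0.0036 to 0.64 for Ifitm2, and each changed sign without scrambled library 2 (Cebpb also without knockdown library 1, at 0.40). The range was -0.95 to 0.029 for Pdgfra, which changed sign without scrambled library 1, and Mdm2 was at 0.033 after quantile normalization. The replicate block ended 0 of the calls of named genes and added 97 among 206. The cause of these shifts was not tested. The listed interferon genes and Axin2 had 9 reads or fewer per library, and no difference could be assessed for them at this depth.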
